A study of Mus musculus with 9 samples.

Results

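The early transcriptional response to lysophosphatidic acid (LPA) was examined in mouse bone marrow-derived dendritic cells (BMDC) by comparing 3 libraries of cells exposed to LPA for 2 h with 3 libraries of untreated cells. The comparison covers every gene of the deposited count table. Of the 38887 rows of that table, 14363 had enough counts to be tested. The series holds 9 libraries of mRNA, 3 of them from a later time, 6 h, which served here to estimate the spread between libraries and to show how levels stood afterwards. The labels describe both groups as BMDC and differ between them only in the LPA exposure. The sources used here do not give mouse strain, culture conditions, LPA dose, vehicle or how long untreated cells were kept. The labels number the libraries of each group without stating separate mice or cultures. A p-value therefore sets a difference only against the scatter of these libraries, and that scatter may be technical.

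BMDC are grown from bone marrow precursors and take up, process and present antigen. Such cultures commonly hold macrophage-like cells beside dendritic cells. LPA is a phospholipid mediator that binds a family of G protein-coupled receptors on the cell surface. Depending on the G protein engaged, these receptors raise or lower cyclic AMP (cAMP), release calcium, activate MAP kinases or act on the actin cytoskeleton. cAMP activates protein kinase A, which phosphorylates the transcription factor CREB, and CREB switches on early genes through an element called the cAMP response element. LPA and related fatty acid derivatives are also known ligands of the nuclear receptor PPAR gamma, and PPARs in general switch on genes of fatty acid use and storage.

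The 6 libraries compared held between 47202425 and 84596899 estimated counts. On the principal components of log2 CPM (counts scaled to library size), replicate 2 at 2 h stood apart from the other 2 h libraries, at 9.7 on PC1 against -4.7 and -12.4, on the side of the 6 h libraries (35.7 to 40.6). It was also the deepest library. Several list counts are therefore given with and without it, though not all that change. Genes at least 2-fold from the mean of the other 2 h libraries numbered 174, 198 and 238 in replicates 1, 2 and 3. Dendritic cell markers were present, with Itgax at 1361 ± 35.8 CPM untreated and 1318 ± 60.9 CPM at 2 h and Cd74 at 3597 ± 337 CPM and 3645 ± 247 CPM (mean ± SD, n = 3 each), and 14 of 15 markers on that list passed the filter. The marker Cd209a, with 4 counts over the 6 libraries, did not. All 15 macrophage and monocyte markers passed as well, with summed levels of 20080 to 21470 CPM untreated and 22330 to 23650 CPM at 2 h, most of it Lyz2. Of the dendritic cell markers 1 was called higher and 4 lower at 2 h, and of the macrophage and monocyte markers, which include Cd14 and Ccr2, 2 higher and 3 lower. Over all tested genes 19.3% were called higher and 19.2% lower, so these few calls are not read as a shift of cell type. Of the plasmacytoid dendritic cell markers 5 of 7 passed the filter, at 379 to 423 CPM summed untreated and 334 to 429 CPM at 2 h, mainly from the interferon-stimulated gene Bst2, and 1 was called higher. Erythroid and megakaryocyte markers (3 of 10 passed, 2 called higher) summed to 39.58 to 50.45 CPM untreated and 48.8 to 58.1 CPM at 2 h, mainly from Pf4. Mast cell and basophil markers (3 of 10, 1 higher) summed to 19.25 to 24.6 CPM and 23.2 to 24.2 CPM, and neutrophil markers (7 of 12) to 15.1 to 20.5 CPM and 13 to 18.2 CPM. B and plasma cell markers (2 of 8 passed) summed to 10.03 to 12.55 CPM and 6.51 to 11.1 CPM, and T and NK cell markers (3 of 11) to 1.49 to 1.76 CPM and 0.862 to 1.46 CPM. In the neutrophil, B cell and T cell lists 0 were called by edgeR or DESeq2, and 1, 0 and 2 were lower at an unadjusted p under 0.05 by edgeR. Stromal and endothelial markers (6 of 12, 1 higher) summed to 29.2 to 41.6 CPM and 31.5 to 60.6 CPM, mainly from Kdr. Cd3g, Ncr1, Cma1 and Tpsb2 were at 0 counts in all 6 libraries. Untreated replicate 2 stood apart in endothelial genes and, at low counts, in stromal and red blood cell genes. It held 110 of the 125 counts of Tek and 207 of the 231 counts of Slco2a1 over the 6 libraries, and Cdh5 was at 2.18, 7.86 and 2.19 CPM in the untreated libraries and Pecam1 at 0.742, 4.93 and 0.862 CPM. The same library held all 10 counts of Col1a1, 7 of the 9 of Col3a1, 11 of the 13 of Hba-a2 and 24 of the 43 of Hbb-bt. Without that library 4619 genes were called, 2318 higher and 2301 lower. The part of endothelial, stromal and red blood cell RNA in other results was not tested. In RNA from whole cultures, a lower level of a transcript cannot be told apart from fewer cells that carry it.

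At 2 h 38.5% of the tested genes were called, that is, had an adjusted p under 0.05 by the quasi-likelihood test of edgeR, adjusted after Benjamini and Hochberg over all 14363 genes. Genes called higher made up 19.3% of all tested genes and genes called lower 19.2%. Most of these changes were small. The median called rise was 1.31-fold and the median called fall 1.27-fold, and 69.1% of rises and 77.6% of falls were under 1.5-fold. When the same counts were tested against a change of 1.2-fold in place of 0, 1962 genes passed, 1079 higher and 883 lower. The large changes were unequally divided. Genes called at least 2-fold higher were 2.88% of all tested and genes called at least 2-fold lower 1.46%. At least 4-fold changes numbered 99 up and 13 down, and at least 16-fold changes 15 up and 0 down. In 48.2% of tested genes all 3 libraries of one group lay above all 3 of the other.

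**Figure D1:**
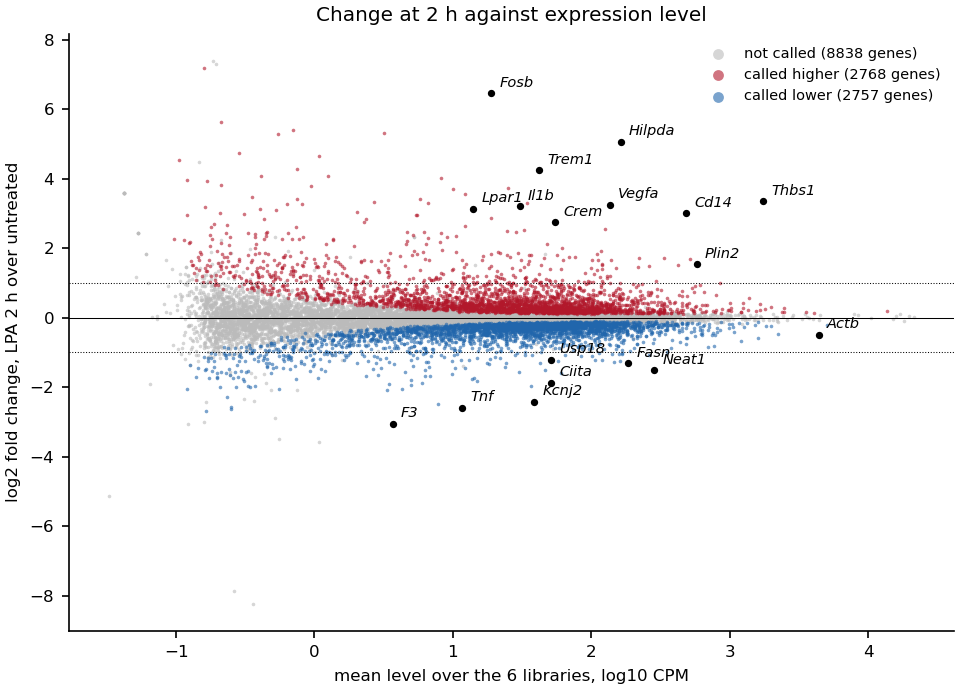
Log2 fold change at 2 h over untreated (vertical axis) against the mean level over the 6 libraries in log10 CPM (horizontal axis), 1 point per tested gene, grey where not called; dotted lines mark a 2-fold change. Called rises and falls are similar in number (2768 and 2757), while the points farthest from 0 among well-expressed genes, such as Fosb and Hilpda, are rises.

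The strongly changed genes differed from the rest in build and level. Genes called at least 2-fold lower were short, with a median genomic span of 9.07 kb against 20.9 kb over all tested genes with 1 match in the annotation. Of these genes 51.2% spanned under 10 kb, against 29.1% of all tested, and only 4.48% spanned over 100 kb, against 11.4%. Their median number of separate exon blocks was 4, against 9. Genes called at least 2-fold higher had a median span of 19 kb, near that of all tested genes, but came from a low starting level. Their median untreated level was 0.803 CPM against 17 CPM over all tested genes, and 52.5% of them lay under 1 CPM, against 17.6%. Genes with low counts need a larger change to pass the test. Of the genes called at least 2-fold lower, 40.8% also lay under 1 CPM untreated. Protein-coding genes made up 73.6% of genes called at least 2-fold lower and 85.2% of those at least 2-fold higher, against 90% of all tested. The part of level and of gene type in the difference of span was not tested.

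**Figure D2:**
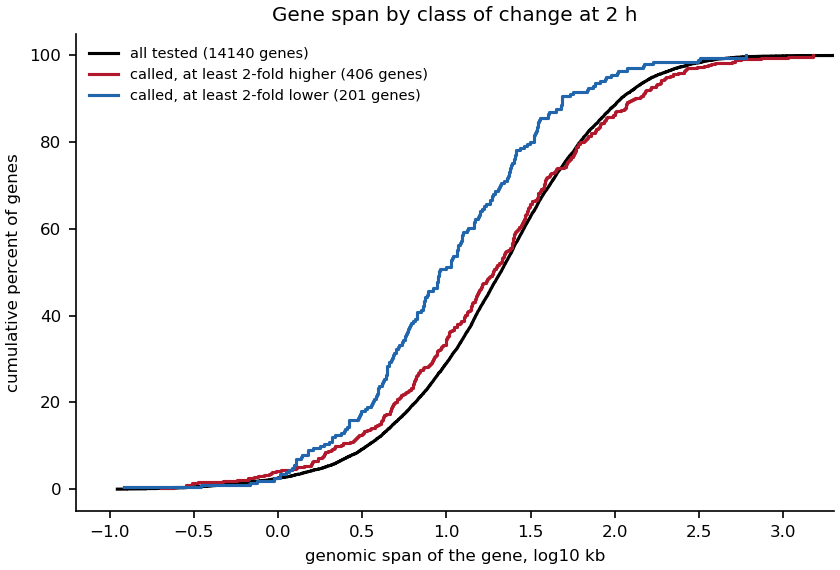
Cumulative percent of genes (vertical axis) up to each genomic span in log10 kb (horizontal axis) for all tested genes, genes called at least 2-fold higher and genes called at least 2-fold lower. The curve of the 201 lower genes lies to the left, with a median of 9.07 kb against 20.9 kb for all tested genes.

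The largest changes were taken among called genes of at least 5 CPM with an established symbol and groups that did not overlap. The 12 largest rises were led by Fosb (chromosome 7, 19302696 to 19310051, GRCm38), which encodes an AP-1 transcription factor subunit. Fosb stood at 0.297, 0.62 and 0.273 CPM in the untreated libraries and at 35.6, 24.7 and 51.3 CPM at 2 h. The group of 12 further held Fam71f2, Hilpda, Trem1, Lepr, Angptl4, F5, Il1r2, Sdcbp2, Thbs1, Osm and Nr4a1. Fam71f2 (chromosome 6, 29279593 to 29290680) follows Hilpda on the plus strand, and whether its reads come from its own transcript was not tested. The 12 largest falls were F3, Tnf, Npas4, Kcnj2, Klf2, Olfr111, Dusp6, Ccl2, Ciita, Ccl3, Ifit3b and Slfn1. F3 (chromosome 3, 121723537 to 121735048), the gene of tissue factor, which starts blood coagulation, fell from 6.93, 5.9 and 6.89 CPM to 0.782, 0.862 and 0.696 CPM. Kcnj2, an inward rectifier potassium channel gene, fell from 68.7, 61.6 and 66.4 CPM to 12, 13.9 and 10.6 CPM. Olfr111, Ifit3b and Slfn1 have close paralogs, so the division of reads among copies is uncertain for them. By the same test, adjusted p over these 24 genes ran from 1.41e-12 (Hilpda) to 0.00788 (Dusp6, a MAP kinase phosphatase gene). The 2 h libraries of Dusp6 were widely spread, at 14.8, 23 and 6.85 CPM, though all lay below the untreated 59.4, 57.1 and 61 CPM.

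**Figure D3:**
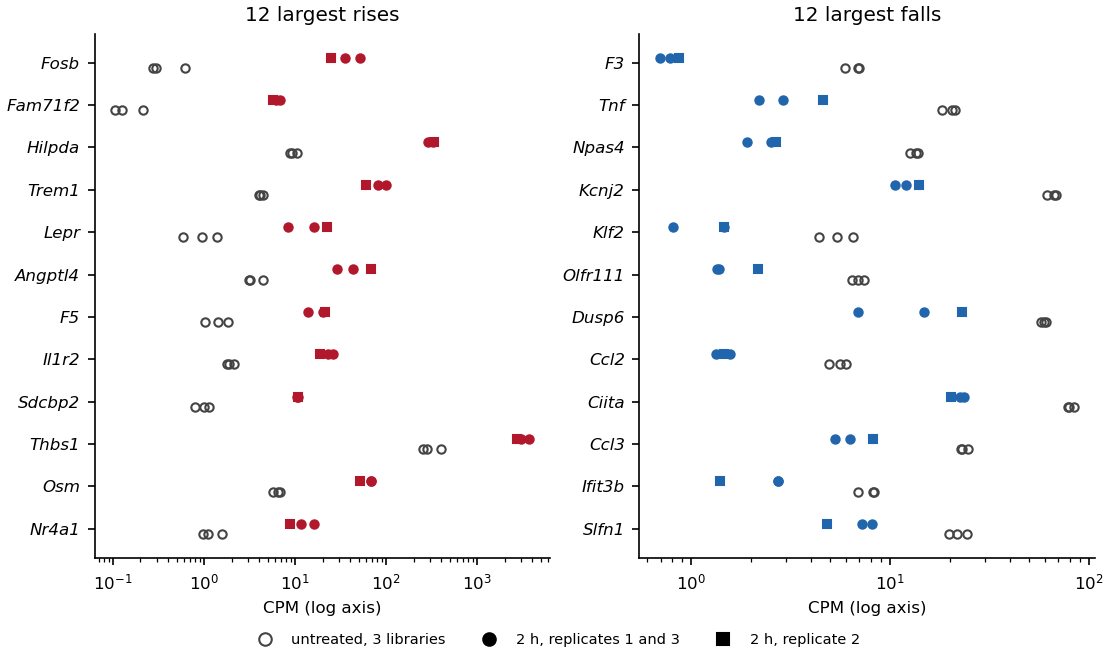
Level in CPM (horizontal log axes) of the 12 largest rises (left) and 12 largest falls (right), 1 mark per library, open for untreated, filled for 2 h and square for replicate 2 at 2 h. Only called genes whose groups did not overlap were eligible, so the filled and open marks are apart by choice. Replicate 2 lies highest for Lepr and Angptl4 and lowest for Fosb, Trem1 and Nr4a1.

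Among called genes whose groups did not overlap, the largest gain in CPM was that of Thbs1 (chromosome 2, 118111876 to 118127133), which encodes the matrix glycoprotein thrombospondin 1. It rose from 405, 279.6 and 255 CPM to 3741, 2757 and 3020 CPM, a log2 fold change of 3.34 ± 0.22. Cd14, the co-receptor that hands lipopolysaccharide to Toll-like receptor 4, came next with 106, 117 and 95.7 CPM untreated and 900.3, 929 and 738 CPM at 2 h (3.01 ± 0.10). The antiproliferative gene Btg1 rose from 575 ± 14.5 CPM to 1143 ± 112 CPM, the metalloproteinase gene Mmp19 from 243 ± 33.9 CPM to 788 ± 162 CPM, and Cytip, a cytohesin-binding regulator of adhesion, from 219.7 ± 8.63 CPM to 632 ± 77.1 CPM (mean ± SD, n = 3 each). Smaller relative rises of abundant genes were those of the cystine transporter gene Slc7a11 (0.57 ± 0.08) and the fatty acid receptor gene Cd36 (0.32 ± 0.05). The largest losses in CPM were of Actb, from 5152 ± 321 CPM to 3665 ± 354 CPM, and the chaperone gene Hspa8, from 2592 ± 34.9 CPM to 1868 ± 93.6 CPM. Plxna1, a semaphorin receptor gene (-0.68 ± 0.06), Rassf4 (-0.84 ± 0.10), the endocytic receptor gene Lrp1 (-0.42 ± 0.07) and Alas1, which encodes the first enzyme of heme synthesis (-0.25 ± 0.05), also fell. The nuclear non-coding RNA Neat1, the scaffold of paraspeckles, fell from 422, 433 and 410 CPM to 145, 180.3 and 116 CPM. It was 1 of 2 nuclear long non-coding RNAs called lower among 6 tested, with 1 called higher. Among 33 cytosolic ribosomal protein genes, a list used to look at RNA composition, 9 were called higher and 4 lower, with a median log2 fold change of 0.09. Without untreated replicate 3, or without 2 h replicate 1, only 2 of these genes were called higher.

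Genes were then read by lists of shared role, and the plot of gene lists gives 53 of them. Counts of members are read against the shares over all tested genes, 19.3% called higher and 19.2% called lower. Lists can share genes. Lists and members were chosen with earlier results of these data known, so the rank of a list may partly reflect that choice.

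**Figure D4:**
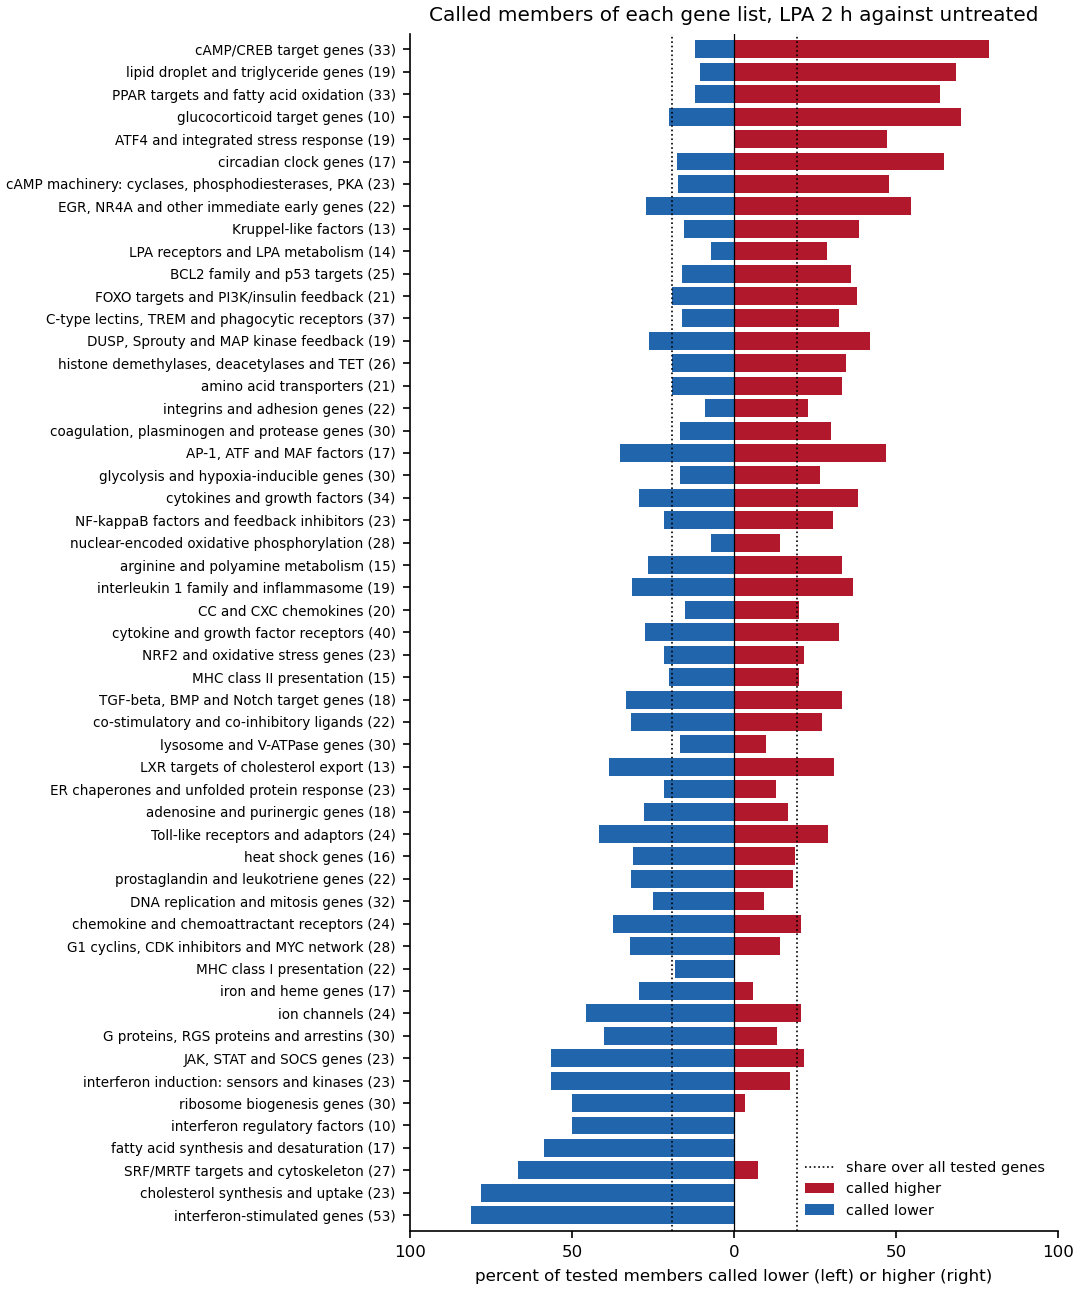
Percent of tested members called lower (left, blue) or higher (right, red) in each of 53 gene lists, with the number of tested members in parentheses; dotted lines mark the shares over all tested genes (19.2% lower, 19.3% higher). cAMP/CREB target genes are at the top with 26 of 33 called higher, and interferon-stimulated genes at the bottom with 43 of 53 called lower.

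The receptors through which LPA can act were examined first. Per kilobase of exon, Lpar6 had the highest level among the tested receptors, 22.7 CPM per kb untreated and 27 at 2 h. Lpar1, the first LPA receptor described, stood at 0.663 CPM per kb untreated and 5.85 at 2 h, which placed it above Lpar5 (2.75 and 1.2) and Lpar2 (0.333 and 0.298) at the later point. By library, Lpar1 was at 2.84, 2.83 and 2.86 CPM untreated and at 27.6, 19.1 and 28.6 CPM at 2 h. Lpar5 fell in all 3 libraries, from 4.37, 4.16 and 3.97 CPM to 1.56, 1.99 and 1.91 CPM. Lpar2 and Lpar3 did not pass the test (-0.17 ± 0.15 and -0.05 ± 0.20), and Lpar4 was below the filter. Over the 14 tested genes of LPA receptors and LPA metabolism, 4 were called higher and 1 lower, and 2 lower without 2 h replicate 2 or without 2 h replicate 3.

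Downstream of the receptors, more G protein and RGS genes fell than rose. Of 30 tested, 12 were called lower and 4 higher. Gna13, which encodes a G protein alpha subunit known to couple to LPA receptors, rose from 234, 231 and 239 CPM to 353, 358 and 369 CPM, and Gna15, which encodes a subunit of the phospholipase C-coupled class, fell from 38, 40.9 and 38.9 CPM to 18.3, 22.2 and 17 CPM. RGS proteins speed the shut-off of G proteins. Rgs1 (0.69 ± 0.09) and Rgs2 (0.59 ± 0.07) rose, and Rgs14 (-0.85 ± 0.07), Rgs3 (-0.88 ± 0.09) and Rgs19 (-0.33 ± 0.05) fell, as did the receptor kinase gene Grk3 (-0.62 ± 0.05).

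Genes of cAMP handling moved mainly upward, with 11 of 23 called higher and 4 lower, the same counts without 2 h replicate 2. The rises were largest among phosphodiesterases, the enzymes that break cAMP down. Pde3b rose from 11.4, 10.3 and 11.4 CPM to 40.4, 38.3 and 36.2 CPM and Pde4b from 32.5, 36.1 and 35.4 CPM to 116, 94.6 and 141 CPM. Pde4d (1.18 ± 0.08), Pde7b (0.61 ± 0.05) and Pde8a (0.41 ± 0.06) rose as well, while Pde4a fell (-0.56 ± 0.08). The adenylyl cyclase genes Adcy6 (-0.57 ± 0.07) and Adcy9 (-0.49 ± 0.10), whose products make cAMP, fell. The groups did not overlap in any of these genes, which were chosen among called members by small p. Over the whole list they did not overlap in 16 of 23 tested genes, against 48.2% of all tested genes.

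Known cAMP and CREB target genes had the largest share called higher among the 53 lists plotted, which were chosen with earlier results known. Of 33 tested members, 26 were called higher, 19 of them at least 2-fold, and 4 lower, with a median log2 fold change of 1.14 against 0 over all tested genes. Without 2 h replicate 2 the counts were 25 higher and 5 lower, and without untreated replicate 2 they were 26 and 3. Crem, which encodes cAMP-responsive activator and repressor isoforms, rose from 14.1, 14.3 and 14.4 CPM to 111, 77.4 and 99 CPM. The salt-inducible kinase gene Sik1, whose product restrains CREB co-activators, rose from 8.24 ± 0.636 CPM to 29.4 ± 4.34 CPM. The EGF family ligand gene Areg had 3, 1 and 0 counts in the untreated libraries and 56, 71 and 63 at 2 h, so that its untreated level rests on 4 counts in all and no fold is given. The AP-1-related repressor gene Jdp2 (1.46 ± 0.08) and the GTP-binding protein gene Gem (2.33 ± 0.15) rose too. The 4 lower members were Cebpd (-0.98 ± 0.14), Cited2 (-0.60 ± 0.08), Id2 (-0.58 ± 0.05) and Atf3 (-0.32 ± 0.09), which encode regulators of transcription. The Atf3 call was lost without untreated replicate 2 or without 2 h replicate 1.

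Promoter sequence was looked at for these genes in the RefSeq table for GRCm38.p6, which gives 250 bases before to 50 bases after each start. That table matched 75.5% of the tested genes that carry a symbol and 75.8% of the CREB target list. This is under the 80% set as a minimum, so shares of promoters with a motif were not compared between classes of change. The full cAMP response element, TGACGTCA (its own reverse complement), was searched in both strands. It occurs in 1.79% of the 32851 promoters of the table, and in the 250 bases before the start in 1.55%. Among named genes called at least 2-fold higher, 4 promoters held it in the 250 bases before the start. They are those of Areg, Btg2 and Dusp1, from the CREB target list, and of Dusp8. Among named genes called lower, by any amount, 7 were found to hold it there (Cycs, Mcm5, Mitf, Nfkbid, Plk2, Ppan and Tubb2a). Named genes called higher by less than 2-fold, and named genes not called, are not covered by these counts. The 4 and the 7 rest on unequal limits of size and cannot be compared as shares of rises and falls. The Cycs and Mitf calls were lost on leaving out any single library of the 2 groups except 2 h replicate 3. The sequences are shown 5′ to 3′ on the strand of the gene, with the element in capitals, because these letters are what CREB is known to bind. They describe the window only and do not show binding.
Areg, chr5:91139349-91139598, plus strand: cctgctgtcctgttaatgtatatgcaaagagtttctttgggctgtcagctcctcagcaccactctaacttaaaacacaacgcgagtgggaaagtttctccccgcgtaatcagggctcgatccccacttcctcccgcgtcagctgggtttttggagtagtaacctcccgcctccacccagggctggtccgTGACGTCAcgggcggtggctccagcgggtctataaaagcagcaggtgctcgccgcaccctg
Btg2, chr1:134079156-134079405, minus strand: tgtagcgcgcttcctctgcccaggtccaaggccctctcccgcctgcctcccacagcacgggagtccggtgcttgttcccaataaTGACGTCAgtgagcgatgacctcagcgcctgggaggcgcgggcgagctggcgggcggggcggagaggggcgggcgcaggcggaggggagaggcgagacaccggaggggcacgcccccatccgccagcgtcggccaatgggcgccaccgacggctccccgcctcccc
Dusp1, chr17:26508473-26508722, minus strand: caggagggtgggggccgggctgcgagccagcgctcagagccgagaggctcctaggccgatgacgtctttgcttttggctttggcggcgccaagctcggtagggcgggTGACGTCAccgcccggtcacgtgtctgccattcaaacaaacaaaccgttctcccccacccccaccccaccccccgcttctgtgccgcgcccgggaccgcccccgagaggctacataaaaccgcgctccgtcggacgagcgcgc
Dusp8, chr7:142095285-142095534, minus strand: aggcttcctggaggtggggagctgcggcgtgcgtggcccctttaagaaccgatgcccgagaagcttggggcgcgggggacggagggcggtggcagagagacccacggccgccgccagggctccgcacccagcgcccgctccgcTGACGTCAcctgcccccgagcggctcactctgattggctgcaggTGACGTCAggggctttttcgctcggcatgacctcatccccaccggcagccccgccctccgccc
The element begins 61 bases before the start in Areg, 166 in Btg2 and 143 in Dusp1. Dusp8 holds 2 copies, beginning 107 and 63 bases before the start. The antiproliferative gene Btg2 rose from 59.6, 59.5 and 56.7 CPM to 129.9, 113 and 116 CPM. Dusp1, which encodes a nuclear phosphatase of p38 and JNK kinases, rose from 25.1, 38.9 and 31.6 CPM to 102, 104 and 115 CPM, and Dusp8, of the same family, from 1.25, 1.44 and 1.07 CPM to 9.51, 8.88 and 10.9 CPM. In all 3 genes, which were taken from called genes, the groups were apart, as they were in 48.2% of all tested genes.

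Immediate early genes, which are switched on without new protein synthesis, moved in both directions. Of 22 tested EGR, NR4A and related genes, 12 were called higher and 6 lower. The nuclear receptor gene Nr4a1 rose from 1.1, 1.56 and 0.967 CPM to 16, 8.84 and 11.5 CPM and Nr4a2 from 2.52, 4.02 and 3.66 CPM to 17.6, 14.3 and 20.6 CPM, whereas Nr4a3, already at 79.2 ± 1.98 CPM untreated, rose less (0.69 ± 0.11). Egr2 fell from 220.5, 229 and 221 CPM to 105, 131 and 87.6 CPM, and Npas4, a factor known from neurons, from 13.8, 12.6 and 13.5 CPM to 2.51, 2.67 and 1.91 CPM. Egr1 did not pass the test (-0.31 ± 0.32, adjusted p = 0.495). Myc (-0.54 ± 0.09) and the stress kinase gene Plk2 (-0.77 ± 0.12) fell. Within AP-1, Fos (1.71 ± 0.15), Fosl2 (1.71 ± 0.12) and Junb (1.48 ± 0.09) rose beside Fosb, Fosl1 fell (-0.80 ± 0.14), and Jun did not pass (-0.20 ± 0.09, adjusted p = 0.112) and was called lower without 2 h replicate 2 and with a replicate block. The basic leucine zipper genes Maf (-0.88 ± 0.09), Batf2 (-0.88 ± 0.09) and Batf3 (-0.60 ± 0.09) fell, while Mafk rose (0.74 ± 0.07). Over the 17 AP-1, ATF and MAF genes 8 were called higher and 6 lower, or 7 and 7 without 2 h replicate 2.

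MAP kinase phosphatases and feedback inhibitors were divided by member. Of 19 tested, 8 rose and 5 fell. Beside Dusp1 and Dusp8, Dusp10 (1.69 ± 0.14), Dusp14 (2.27 ± 0.21), Dusp5 (1.04 ± 0.08) and Dusp16 (0.82 ± 0.08) rose. Those that fell were Dusp6, Dusp7 (-0.90 ± 0.11), Dusp3 (-0.22 ± 0.05), Spred1 (-0.57 ± 0.08) and Dusp4 (-0.62 ± 0.19). Dusp6 and Dusp7 encode cytoplasmic phosphatases selective for ERK, and Spred1 an inhibitor of the step from Ras to Raf. The Dusp4 call was lost without untreated replicate 1 or 2 and without 2 h replicate 1 or 3.

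Of 17 circadian clock genes 11 were called higher and 3 lower, with a median of 0.62. Without 2 h replicate 2 the counts were 11 and 5. The period genes Per1 (34.3, 33.9 and 32.4 CPM untreated, 88.5, 76.4 and 98.2 CPM at 2 h) and Per2 (16, 13.8 and 13.1 CPM and 31.4, 31.5 and 30.7 CPM) rose, and Per3 fell (-0.30 ± 0.08). The cryptochrome gene Cry2 rose by 0.83 ± 0.07 on the log2 scale, the nuclear receptor gene Rora by 1.08 ± 0.08, and Nfil3, a repressor that is also a CREB target, by 2.00 ± 0.11. Bhlhe41, which encodes a repressor of the clock, fell from 187, 189.9 and 195 CPM to 66.7, 117 and 89.6 CPM. Several genes known to answer to glucocorticoids rose as well, 7 of 10 tested, among them Sgk1 (0.74 ± 0.05) and Ddit4 (2.62 ± 0.15). The steroid receptor co-chaperone gene Fkbp5, a standard glucocorticoid target, was lower (28.5, 28.1 and 28.5 CPM untreated and 22, 22.2 and 21.9 CPM at 2 h). Per1, Dusp1 and Cebpd are also on the list of CREB targets.

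Among Kruppel-like factors, 5 of 13 rose and 2 fell. Klf11 rose from 4.62, 4.69 and 4.2 CPM to 32.5, 27.7 and 39.5 CPM and Klf4 from 27.8, 25.2 and 24.8 CPM to 45.4, 39.8 and 61.5 CPM. Klf2, which holds myeloid cells quiescent, fell from 6.46, 5.41 and 4.37 CPM to 1.46, 1.47 and 0.805 CPM, and Klf6 fell slightly (-0.20 ± 0.06). In the list of FOXO targets and insulin feedback, Foxo1 itself (0.81 ± 0.07), Irs2 (1.03 ± 0.09), Trib1 (1.23 ± 0.07) and Ccng2 (0.75 ± 0.05) rose, and Bcl6 (-0.49 ± 0.05) and the phosphatase gene Inpp5d (-0.28 ± 0.04) fell, with 8 of 21 higher and 4 lower. TGF-beta and Notch targets were split, 6 of 18 in each direction. The inhibitory SMAD genes Smad7 (0.84 ± 0.10) and Smad6 (0.83 ± 0.14) and the repressor gene Skil (0.93 ± 0.09) rose. The Notch ligand gene Jag1 (-0.60 ± 0.06), the Notch target Hey1 (-1.32 ± 0.19) and the receptor gene Tgfbr1 (-0.51 ± 0.09) fell. Among chromatin enzymes 9 of 26 rose and 5 fell. The class IIa deacetylase gene Hdac5 (0.99 ± 0.07), the histone H3 lysine demethylase genes Kdm6b (1.00 ± 0.11) and Kdm3a (0.58 ± 0.05) rose, and Hdac7 fell (-0.69 ± 0.08).

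Genes of lipid storage and of fatty acid burning rose, and genes of lipid synthesis fell. Of 19 tested genes of lipid droplets and triglyceride turnover, 13 were called higher and 2 lower. Of 33 PPAR targets and genes of fatty acid oxidation, 21 were higher and 4 lower. Of 17 genes of fatty acid synthesis and desaturation, 0 were higher and 10 lower (edgeR's quasi-likelihood test; 1 higher and 11 lower at an unadjusted p under 0.05, and 0 and 10 by DESeq2). Of 23 genes of cholesterol synthesis and uptake, 0 were higher and 18 lower (0 and 19 at an unadjusted p under 0.05, and 0 and 19 by DESeq2). Without 2 h replicate 2 these counts were 12 and 3, 20 and 3, 0 and 10, and 0 and 15, and without untreated replicate 2 they were 12 and 2, 16 and 4, 0 and 8, and 0 and 16. Without 2 h replicate 1 or 3, 1 gene of fatty acid synthesis was called higher. Medians were 0.29, 0.25, -0.25 and -0.35 in the 4 lists.

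In the droplet list, Hilpda (chromosome 6, 29272488 to 29275446), whose product sits on droplets and blocks triglyceride breakdown, went from 8.69, 10.4 and 9.21 CPM to 288, 334 and 327 CPM. Plin2, the gene of the main droplet coat protein of myeloid cells, went from 307, 299 and 281 CPM to 708, 1257 and 620 CPM. Both triglyceride-forming enzymes rose, Dgat1 from 20.03, 17.1 and 16.9 CPM to 91.5, 69.2 and 72.7 CPM and Dgat2 from 1.59, 1.35 and 1.28 CPM to 3.66, 3.15 and 2.85 CPM. Earlier steps of the pathway rose with them, the acyltransferase gene Gpat3 by 2.75 ± 0.19 and the lipin gene Lpin2 by 0.78 ± 0.05 on the log2 scale. The genes called lower were Mgll, the monoglyceride lipase (-0.42 ± 0.09), and Abhd5, the co-activator of adipose triglyceride lipase (-0.17 ± 0.05). The Abhd5 call was lost without untreated replicate 1.

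The PPAR list was led by Angptl4, which encodes a secreted inhibitor of lipoprotein lipase, at 4.43, 3.21 and 3.11 CPM untreated and 43.1, 68.2 and 28.8 CPM at 2 h. Pdk4, a kinase gene that steers cells from glucose to fatty acids, had 2, 1 and 2 counts untreated and 74, 174 and 34 at 2 h. Carriers and enzymes of mitochondrial oxidation rose by less. The carnitine palmitoyltransferase gene Cpt1a rose from 136, 121 and 121 CPM to 184, 226 and 162 CPM, the carnitine carrier gene Slc25a20 by 0.93 ± 0.08, Ehhadh by 0.72 ± 0.07 and Acot2 by 0.84 ± 0.09 on the log2 scale. The uncoupling protein gene Ucp3 rose from 0.538 ± 0.048 CPM to 1.89 ± 0.223 CPM. The receptor genes themselves moved otherwise, since Pparg (-0.57 ± 0.15) and its partner Rxra (-0.30 ± 0.05) fell, as did the PPAR gamma target Fabp4 (-0.50 ± 0.08). Plin2, Angptl4, Pdk4 and Cpt1a were each highest at 2 h in replicate 2, and these genes were also higher at 6 h than at 2 h (1.33, 1.27, 1.2 and 0.71 on the log2 scale).

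**Figure D5:**
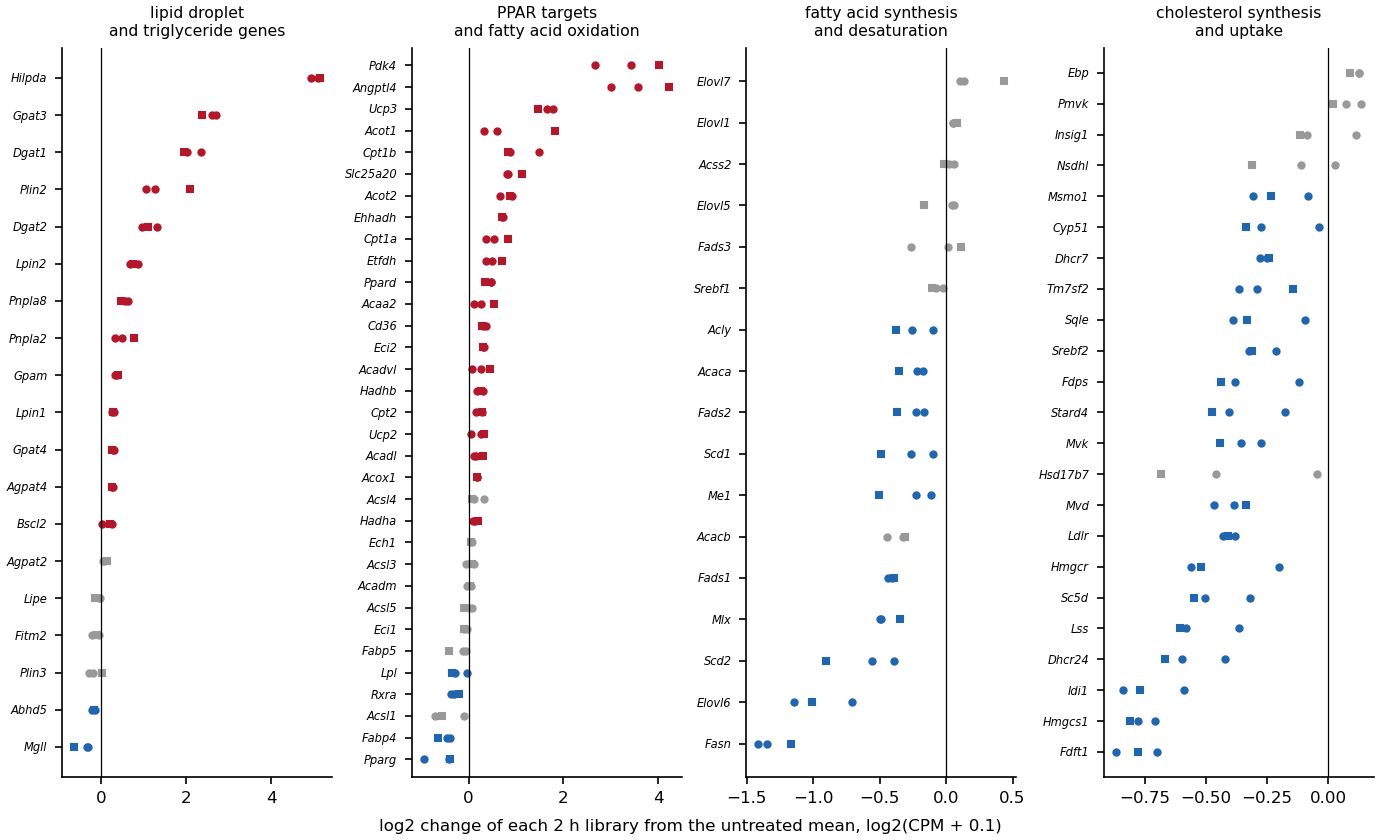
Log2 change of each 2 h library from the untreated mean, on log2(CPM + 0.1), for every tested member of 4 lipid lists (each panel has its own horizontal scale), red where called higher, blue where called lower, grey where not called, squares for replicate 2. Most droplet and oxidation genes lie to the right of 0 and most synthesis genes to the left, with Hilpda and Fasn at the ends of their lists.

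On the synthesis side, Fasn, the fatty acid synthase gene, fell from 250, 262 and 274 CPM to 98.3, 117 and 103 CPM. The elongase gene Elovl6 (-0.96 ± 0.13), the desaturase genes Scd2 (-0.60 ± 0.11) and Fads1 (-0.41 ± 0.04) and the acetyl-CoA carboxylase gene Acaca (-0.25 ± 0.05) fell too. Of the cholesterol pathway, the squalene synthase gene Fdft1 was at 79.2, 86.7 and 86.5 CPM untreated and 46, 48.9 and 51.7 CPM at 2 h, and the isomerase gene Idi1 at 193, 213 and 232 CPM and 118, 124 and 141 CPM. Sc5d (-0.46 ± 0.06) and Mvd (-0.40 ± 0.05), a late and an early enzyme, fell by less than 1.5-fold. The SREBP regulator genes did not all move with their targets, since Srebf2 was called lower (-0.29 ± 0.06) and Srebf1 was not called (-0.07 ± 0.04). Cholesterol export genes were divided. Abca1, the transporter that loads apolipoprotein A-I, rose from 425, 368 and 382 CPM to 797, 660.1 and 727 CPM, while Abcg1, which loads mature particles, fell from 260.5, 239.7 and 232 CPM to 159, 183 and 133 CPM.

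Genes of amino acid and stress metabolism rose in part. Of 19 tested targets of ATF4, the factor of the integrated stress response, 9 were called higher and 0 lower, and 8 higher and 2 lower without 2 h replicate 2. At an unadjusted p under 0.05, 2 were lower, and DESeq2 called 0 lower. Trib3, a pseudokinase gene, rose from 6.91, 8.53 and 6.92 CPM to 22.2, 24.4 and 29.6 CPM, and Atf4 (0.56 ± 0.06), Sesn2 (0.66 ± 0.07) and Chac1 (1.49 ± 0.22) rose, whereas the amino acid synthesis genes of that list, Asns (0.17 ± 0.16), Psat1 (0.13 ± 0.09) and Phgdh (-0.16 ± 0.16), did not pass. The amino acid transporter genes Slc1a4 (1.47 ± 0.11), Slc38a2 (0.73 ± 0.06) and Slc3a2 (0.43 ± 0.05) rose, and the lysosomal Slc36a1 fell (-0.79 ± 0.08). Chaperones of the endoplasmic reticulum changed little, with 3 of 23 higher and 5 lower, all within a log2 fold change of -0.27 to 0.32. In arginine and polyamine metabolism, Arg2, the mitochondrial arginase gene, rose from 2.67, 2.16 and 1.93 CPM to 13.3, 10.9 and 9 CPM. The polyamine genes Odc1 (0.80 ± 0.06) and Smox (1.19 ± 0.12) rose, and the spermidine synthase gene Srm fell (-0.34 ± 0.07).

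Genes of hypoxia and glycolysis showed 8 of 30 members called higher and 5 lower, near the shares over all genes. Ddit4 (3.79, 3.75 and 2.73 CPM untreated, 23.5, 17.2 and 23 CPM at 2 h), Mxi1 (1.65 ± 0.06), Ndrg1 (0.93 ± 0.13) and the lactate exporter gene Slc16a3 (0.66 ± 0.08) rose, and the hexokinase gene Hk2 (-0.49 ± 0.05) and phosphofructokinase gene Pfkl (-0.41 ± 0.07) fell. Bnip3 (0.21 ± 0.13), Pgk1 (0.10 ± 0.05) and Car9 (0.02 ± 0.13), named after their values were seen, did not pass. The list leaves out Hilpda and Vegfa, which rose more than any of its members. NRF2 targets went both ways, 5 of 23 in each direction, near the shares over all genes, and 9 lower without 2 h replicate 3. Slc7a11, Srxn1 (0.43 ± 0.07) and Gclc (0.43 ± 0.08) rose, and Nfe2l2, which encodes NRF2 itself (-0.65 ± 0.06), Hmox1, the gene of inducible heme oxygenase (-0.49 ± 0.07), and Osgin1 (-0.77 ± 0.11) fell. The iron exporter gene Slc40a1 fell from 99.8, 106 and 114 CPM to 55.9, 47.5 and 73.6 CPM.

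Interferon-stimulated genes were lower as a group. Of 53 tested, 43 were called lower and 0 higher, 10 of them at least 2-fold lower, with a median of -0.64. At an unadjusted p under 0.05, 0 were higher and 45 lower, and DESeq2 called 0 higher and 45 lower. Without 2 h replicate 2 the counts were again 0 and 43, and without untreated replicate 2 they were 0 and 38. Ifit3b and Ifit1, of a family whose products bind foreign RNA, fell most. Ifit1 fell from 47.3, 43.3 and 44.6 CPM to 14.8, 11.9 and 18.9 CPM and Ifit3b from 8.24, 8.15 and 6.85 CPM to 2.74, 1.39 and 2.72 CPM. The oligoadenylate synthetase gene Oas2 was at 35.1, 35.4 and 33.3 CPM untreated and 15.2, 10.04 and 13.6 CPM at 2 h. Usp18, whose product removes ISG15 and damps receptor signalling, was at 69.8, 72.6 and 71.7 CPM and 30.8, 27.4 and 34.4 CPM, and the ubiquitin ligase gene Dtx3l at 107, 99 and 105 CPM and 60.3, 53.8 and 58.5 CPM. Rnf213, a large interferon-inducible ubiquitin ligase gene, fell from 980.1, 1009 and 972 CPM to 596, 424 and 643 CPM. Replicate 2 was the lowest of the 2 h libraries in Ifit1, Ifit3b, Oas2, Usp18, Dtx3l and Rnf213, and the first 4 and Rnf213 were lower again at 6 h than at 2 h (-2.31, -3.06, -1.51, -0.78 and -1.42 on the log2 scale), while Dtx3l was not called different (-0.05). Not all members moved. Rsad2 (-0.17 ± 0.12), Oasl1 (-0.06 ± 0.14), Bst2 (-0.10 ± 0.09) and Isg20 (-0.19 ± 0.12) did not pass the test.

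The upstream window of Ifit3b is shown because it is the interferon-stimulated gene of the largest fall with a promoter in the table. The core of the interferon-stimulated response element was searched as AAANNGAAA in both strands, and it occurs in 10.6% of the 32851 promoters, and in the 250 bases before the start in 9.37%. The window holds 2 matches on the opposite strand, shown in capitals as their reverse complements, the farther beginning 188 bases before the start.
Ifit3b, chr19:34607707-34607956, plus strand: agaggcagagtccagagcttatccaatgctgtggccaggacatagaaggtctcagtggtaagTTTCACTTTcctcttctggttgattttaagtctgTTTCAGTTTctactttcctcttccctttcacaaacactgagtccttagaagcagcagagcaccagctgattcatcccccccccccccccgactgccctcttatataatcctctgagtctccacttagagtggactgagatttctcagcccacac

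The genes that carry the interferon signal were lower in part. Stat2 went from 193, 193 and 189.6 CPM to 118, 102 and 116 CPM and Irf9 from 91.8, 87.6 and 88.4 CPM to 73.4, 60.9 and 73.2 CPM; both encode parts of the transcription factor complex that binds the element above. The receptor chain gene Ifnar2 rose (0.30 ± 0.05), and Ifnar1 did not pass (0.03 ± 0.04). Of 10 interferon regulatory factors and binding proteins, 5 were called lower and 0 higher (0 higher and 8 lower at an unadjusted p under 0.05, 0 and 6 by DESeq2; 7 lower without 2 h replicate 2), among them Irf2 (-0.63 ± 0.05) and Irf8 (-0.30 ± 0.07), while Irf7 did not pass (-0.29 ± 0.11, adjusted p = 0.0681 by the same test) and was called lower without 2 h replicate 1, by DESeq2, by limma-voom, with library totals as the scaling and with a replicate block. Of 23 genes of sensing and induction, 13 fell and 4 rose. The kinase gene Ikbke (-0.75 ± 0.05) and Tlr9 (-0.71 ± 0.07) fell, and the ubiquitin ligase gene Trim25 (237, 231 and 233 CPM untreated, 420, 374 and 417 CPM at 2 h), Traf3 (0.70 ± 0.07) and Tank (0.36 ± 0.06) rose. JAK, STAT and SOCS genes had 13 of 23 lower and 5 higher, or 8 lower without untreated replicate 3. Cish, a cytokine-inducible inhibitor of STAT5 signalling, rose from 6.1, 8.3 and 7.71 CPM to 43, 32.1 and 49.6 CPM, and the phosphatase gene Ptpn6 (-0.65 ± 0.04), Stat5a (-0.45 ± 0.05) and Tyk2 (-0.38 ± 0.06) fell.

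In antigen presentation, 4 of 22 class I genes were called lower, near the share over all genes, and 0 higher. At an unadjusted p under 0.05 by edgeR 8 were lower and 2 higher, and DESeq2 called 5 lower and 0 higher. Nlrc5 (-0.53 ± 0.06), Tap1 (-0.32 ± 0.05), Tap2 (-0.32 ± 0.04) and Psmb9 (-0.33 ± 0.05) were the 4. Class II presentation had 3 of 15 in each direction, near the shares over all genes, and 0 higher without untreated replicate 3 or 2 h replicate 1. Ciita, the class II transactivator gene (chromosome 16, 10480059 to 10528418), fell from 84.1, 78.5 and 79.3 CPM to 22.3, 20.3 and 23.6 CPM, and March1, whose ubiquitin ligase removes class II and CD86 from the surface, from 141, 123 and 131 CPM to 71.7, 60.7 and 82.2 CPM. H2-Ab1, a class II chain gene under Ciita control, did not pass (0.06 ± 0.07), while the chain genes H2-Aa and H2-Eb1 were called higher. Both of those calls were lost without untreated replicate 3 or 2 h replicate 1. Co-stimulatory genes Cd86 (32.2, 27.7 and 25.4 CPM untreated, 51.8, 50.1 and 44.3 CPM at 2 h), Cd80 (0.65 ± 0.07) and Cd83 (0.61 ± 0.07) rose, as did the inhibitory receptor gene Havcr2 (1.12 ± 0.06) and the poliovirus receptor gene Pvr (1.26 ± 0.09). Icosl (-0.64 ± 0.09), Cd200r1 (-0.67 ± 0.08) and Sirpa (-0.41 ± 0.04) fell, and Cd274, which encodes PD-L1, did not pass (-0.03 ± 0.06).

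Cytokine genes were called in both directions, with 13 of 34 higher and 10 lower, or 12 and 8 without 2 h replicate 2. Among those that rose, Osm, an interleukin 6 family cytokine gene, went from 5.76, 6.76 and 6.56 CPM to 68.6, 52.3 and 67.7 CPM, and Il1b from 6.53, 6.27 and 5.04 CPM to 74.9, 38.6 and 51.3 CPM. Vegfa was at 28.5, 25.7 and 23.2 CPM untreated and 266, 219 and 252 CPM at 2 h, Tgfb3 at 0.571 ± 0.107 CPM and 4.14 ± 0.587 CPM, and Lif at 1.95 ± 0.246 CPM and 4.86 ± 0.62 CPM (mean ± SD, n = 3 each). Il6 rose from a low level, 0.36, 0.469 and 0.336 CPM to 0.64, 0.969 and 1.22 CPM. Among those that fell, Tnf went from 18.3, 21.2 and 20.4 CPM to 2.9, 4.57 and 2.2 CPM. The endothelin gene Edn1 (-1.66 ± 0.16), the growth factor gene Csf1 (-0.91 ± 0.09), Tnfsf15 (-1.14 ± 0.13) and Hbegf (-0.82 ± 0.15) fell as well. The 2 EGF receptor ligands Areg and Hbegf thus moved in opposite directions.

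In the interleukin 1 system, the decoy receptor gene Il1r2 rose from 1.89, 1.8 and 2.12 CPM to 22.8, 18.8 and 26.3 CPM and the signalling receptor gene Il1r1 from 4.6, 4.2 and 4.08 CPM to 8.09, 7.55 and 8.68 CPM. The inflammasome sensor gene Nlrp3 rose (0.96 ± 0.14). Other inflammasome genes fell, the adaptor gene Pycard (-0.48 ± 0.06), Casp1 (-0.31 ± 0.06), Nlrp1b (-0.66 ± 0.10), Aim2 (-0.22 ± 0.06) and Nlrc4 (-0.26 ± 0.07). Over the 19 members 7 were called higher and 6 lower. Of 23 NF-kappaB factors and feedback inhibitors 7 rose and 5 fell, with Rel (0.57 ± 0.07), Nfkb1 (0.54 ± 0.07) and the RNase gene Zc3h12a (0.47 ± 0.05) among the rises and Tnfaip3, the gene of the feedback inhibitor A20 (-0.59 ± 0.07), and Icam1 (-0.61 ± 0.08) among the falls.

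Toll-like receptor and adaptor genes had 10 of 24 members called lower and 7 higher. Beside Cd14, Tlr2 rose from 164, 147 and 138 CPM to 303, 219.8 and 293 CPM, and Tlr5, at 7, 7 and 6 counts untreated, had 78, 104 and 67 counts at 2 h. Tlr1 fell from 26.2, 28.2 and 29 CPM to 11.7, 11.2 and 15.5 CPM, and Tlr11 (-1.53 ± 0.20), Myd88 (-0.36 ± 0.05) and Irak4 (-0.39 ± 0.06) fell. Of 37 lectin, TREM and phagocytic receptor genes 12 were called higher and 6 lower, and 2 lower without untreated replicate 1. Trem1 (chromosome 17, 48232768 to 48246924), an activating receptor gene that amplifies inflammatory signals, rose from 4.49, 4.1 and 4.04 CPM to 99.9, 59.4 and 81.5 CPM. The Fc receptor gene Fcgr4 (0.89 ± 0.07), the lectin gene Clec4d (0.65 ± 0.07) and the oxidized LDL receptor gene Olr1 (0.51 ± 0.05) rose, and the Fc receptor gene Fcgr1 fell (-0.47 ± 0.11).

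Chemokines and their receptors changed by member. Of 20 chemokine genes 4 were called higher and 3 lower, near the shares over all genes. The monocyte and macrophage attractants Ccl2 (5.62, 6 and 4.9 CPM untreated, 1.33, 1.47 and 1.57 CPM at 2 h), Ccl3 (24.6, 22.7 and 22.9 CPM and 6.26, 8.22 and 5.28 CPM) and Ccl4 (9.42 ± 0.622 CPM and 3.88 ± 0.344 CPM) fell. The neutrophil attractants Cxcl3 (191 ± 26.6 CPM and 393 ± 70.4 CPM) and Cxcl2 (8.6 ± 0.91 CPM and 14.7 ± 2.46 CPM) rose. Cxcl10 did not pass (-0.62 ± 0.25), though it was called lower without untreated replicate 1 or 2 h replicate 3, by limma-voom and with a replicate block. Of 24 receptors 9 fell and 5 rose. Cxcr4, the receptor for the bone marrow chemokine CXCL12, rose from 83.6, 82 and 78 CPM to 243, 219 and 199 CPM, and Ccrl2, a chemerin-binding receptor, from 17.9, 17.1 and 17.3 CPM to 44.9, 44.5 and 55.3 CPM. Ccr1 (0.64 ± 0.07) and Ccr7 (0.41 ± 0.07), which guides dendritic cells to lymph nodes, rose too. Ccr2, the receptor for CCL2, was lower, 86.8, 54.4 and 63.4 CPM untreated and 29, 17 and 25.7 CPM at 2 h. Cmklr1 (-0.78 ± 0.06), Cx3cr1 (-1.33 ± 0.20) and C3ar1 (-0.38 ± 0.06) fell.

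Receptors for cytokines included 13 of 40 higher and 11 lower, or 7 lower without untreated replicate 1, untreated replicate 2 or 2 h replicate 3. Without 2 h replicate 2 the receptor counts were 15 higher and 8 lower. Lepr, the leptin receptor gene, rose from 1.4, 0.953 and 0.589 CPM to 16, 22.2 and 8.26 CPM. It is also on the stromal marker list, of which it was the 1 member called among 6 tested. Whether stromal cells had a part in the Lepr rise was not tested. Ifngr1 (0.96 ± 0.07), Il4ra (0.53 ± 0.04), Il21r (0.44 ± 0.05) and Il7r (0.35 ± 0.05) rose, and Tnfrsf1b (-0.50 ± 0.04) and Nrp2 (-0.37 ± 0.08) fell. In the adenosine and nucleotide system, Nt5e, whose product CD73 makes adenosine, rose from 11, 9.19 and 9.04 CPM to 45.3, 85.6 and 34.6 CPM, with replicate 2 the highest. The adenosine receptor gene Adora2a rose (0.73 ± 0.09), and the nucleotide receptor genes P2rx7 (-0.61 ± 0.06), P2ry13 (-1.45 ± 0.15) and P2ry1 (-0.49 ± 0.10) and the adenosine receptor gene Adora3 (-0.72 ± 0.13) fell.

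Coagulation and protease genes held some of the largest changes in each direction, although only 9 of 30 were called higher and 5 lower (3 lower without untreated replicate 2 or 3). F5, the gene of coagulation factor V, rose from 1.82, 1.44 and 1.03 CPM to 20.3, 21.4 and 13.8 CPM, and the sheddase gene Adam8 from 603, 648 and 608 CPM to 982, 1051 and 860.2 CPM. Plaur, the urokinase receptor gene, rose (0.48 ± 0.06), and the membrane metalloproteinase gene Mmp14 fell (-0.36 ± 0.04), as did F7 (-0.34 ± 0.08), the gene of the partner of tissue factor. Plau, the urokinase gene, was called lower (151, 174 and 180.4 CPM untreated, 42.9, 116 and 57.2 CPM at 2 h), with replicate 2 at 2 h nearest to the untreated libraries. The Plau call was lost on leaving out any single library of the 2 groups except 2 h replicate 2.

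In the list of G1 cyclins, inhibitors and the MYC network 4 of 28 were higher and 9 lower, or 5 lower without untreated replicate 3. Cdkn1b (43.9, 41 and 45.8 CPM untreated, 77, 72.6 and 79.9 CPM at 2 h) and Cdkn1a (199, 231 and 211 CPM and 404, 329 and 407 CPM), genes of CDK inhibitors, rose, as did Mxi1, an antagonist of MYC. Ccnd1, the cyclin D1 gene, fell from 19.7, 21.7 and 20.2 CPM to 9.71, 7.16 and 10.9 CPM, and E2f8 (-0.87 ± 0.06), E2f2 (-0.45 ± 0.06) and Ccnd3 (-0.28 ± 0.07) fell. Of 32 genes of DNA replication and mitosis 8 fell and 3 rose, and 5 fell without untreated replicate 1 or 2 h replicate 2. In survival genes, Mcl1 (0.74 ± 0.05) and Bcl2l11, the gene of the killer protein BIM (0.64 ± 0.05), both rose, and Bcl2 (-0.42 ± 0.06) and Bcl2l1, the gene of BCL-xL (-0.98 ± 0.15), both fell. Ribosome biogenesis genes had 15 of 30 lower and 1 higher, and 14 and 2 without 2 h replicate 2. Ppan (-0.74 ± 0.08), Rrs1 (-0.73 ± 0.08) and the pseudouridine synthase gene Dkc1 (-0.69 ± 0.07) fell, and Rrp1b rose (1.08 ± 0.12).

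Cytoskeletal genes were lower as a group, with 18 of 27 SRF targets and cytoskeletal genes called lower and 2 higher, and the same direction in 17 without 2 h replicate 2. Beside Actb, the falls included the tubulin gene Tubb2a (185, 214 and 206 CPM untreated, 116, 136 and 120.1 CPM at 2 h), Fhl3 (-0.79 ± 0.07), Coro1a (-0.44 ± 0.05), the alpha-actinin gene Actn1 (-0.37 ± 0.04) and the filamin gene Flna (-0.25 ± 0.06). The 2 higher members were Vim (0.16 ± 0.05) and Tpm4 (0.17 ± 0.06). The Vim call was lost without untreated replicate 1 or 3, and the Tpm4 call without untreated replicate 1 or 2 or 2 h replicate 1 or 3. Of 24 ion channel genes 11 were called lower and 5 higher (3, 2 and 3 higher without untreated replicate 1, untreated replicate 3 and 2 h replicate 1). The potassium channel genes Kcnj2, Kcnj10 (-0.92 ± 0.10) and Kcnn4 (-0.38 ± 0.07) and the cation channel gene Trpv4 (-0.88 ± 0.09) fell, and Kcna3 rose from 16.7, 17.2 and 17.4 CPM to 51.4, 37.8 and 44.3 CPM.

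In eicosanoid metabolism 4 of 22 genes rose and 7 fell. The inducible cyclooxygenase gene Ptgs2 was at 3.09, 3.81 and 3.36 CPM untreated and at 12.5, 10.6 and 17 CPM at 2 h, and the constitutive Ptgs1 fell (-0.31 ± 0.06). The receptor genes Ptgir (232, 228 and 222 CPM and 91.9, 109.5 and 85.3 CPM), Ptger4 (-0.64 ± 0.06) and Cysltr1 (-0.76 ± 0.08) fell, and Ptger2, the receptor gene for prostaglandin E2 that couples to cAMP, rose slightly (0.18 ± 0.05). Lists with few calls were lysosomal genes (3 of 30 higher and 5 lower) and nuclear-encoded oxidative phosphorylation genes (4 of 28 higher and 2 lower, or 0 lower without 2 h replicate 2). Tfeb, the regulator of lysosomal genes, fell from 44.9, 44.9 and 44 CPM to 21.5, 26.1 and 19 CPM.

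For some of these genes the levels at 6 h were set beside those at 2 h. The labels give no time for the untreated cells, so the effect of LPA over time cannot be told apart from time in culture. Between 2 h and 6 h 48.7% of all tested genes were called, a comparison that shares the 2 h libraries with the one above. Fosb had dropped to 1.64 ± 0.457 CPM at 6 h (log2 fold change from 2 h -4.44, adjusted p = 0.000107 by the quasi-likelihood test of edgeR, Benjamini-Hochberg adjusted). Il1b was at 17.2 ± 2.23 CPM (-1.68), Lpar1 at 6.84 ± 0.547 CPM (-1.88), Cish at 9.87 ± 0.692 CPM (-2.07), Cxcl3 at 61.4 ± 5.17 CPM (-2.68) and Ptgs2 at 3.04 ± 0.361 CPM (-2.13), each lower than at 2 h. Hilpda, at 357 ± 9.3 CPM, was only slightly above its 2 h level (0.17, adjusted p = 0.0421 by the same test). Plin2 (2173 ± 69.98 CPM), Nt5e (161 ± 2.92 CPM) and Angptl4 (113 ± 1.51 CPM) stood higher than at 2 h. Of the genes that had fallen, Tnf was at 5.76 ± 0.459 CPM, Kcnj2 at 19.2 ± 2.8 CPM, Neat1 at 242 ± 9.58 CPM and Dusp6 at 41.5 ± 6.88 CPM at 6 h, each above the 2 h level, and Ciita was lower still at 18.4 ± 1.12 CPM. Replicate 2 at 2 h was the lowest of its group for Fosb, Il1b, Lpar1, Cish, Cxcl3 and Ptgs2 and the highest for Plin2, Nt5e and Angptl4.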

How the data were processed

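RNA from mouse BMDC was sequenced in 9 libraries, and the authors deposited 1 table of estimated counts (expected counts per transcript-labelled row); per the submitters' processing notes the tools included RSEM 1.2.3 and DESeq2 and the build was mm10. The sources used here do not give the order of steps or the annotation release. The deposited values were whole numbers and were used as they stood. Of the rows, 37776 matched 1 gene (98.5% of counts), 176 several and 935 none (0.141% of counts); 204 symbols had more than 1 row. Libraries were non-stranded, per the labels, so where genes overlap on opposite strands, their reads cannot be told apart here.

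Rows were filtered with edgeR's filterByExpr (minimum count 10, minimum total 15) and scaled by TMM. A quasi-likelihood fit in edgeR 4.0.16 (R 4.3.3) over all 9 libraries, without a replicate block, gave each contrast, with Benjamini-Hochberg adjustment over all 14363 rows and a threshold of 0.05. Standard errors were taken as the absolute log2 fold change over the root of F. Values after ± are SD over 3 libraries for CPM and standard errors for log2 fold changes. CPM per kb divides by the exon length of the matched gene. The fit was tested on simulated data.

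Named genes were the 12 largest rises and falls and the 10 largest gains and losses in CPM (at least 5 CPM, groups apart, established symbol), leading members of each list, and a set always named. Genes named outside this rule, after their values were seen, are Asns, Bnip3, Bst2, Car9, Ccr2, Cd74, Dgat2, H2-Ab1, Ifit1, Isg20, Oas2, Oasl1, Pgk1, Phgdh, Psat1, Rsad2, Srebf1 and Srebf2. The members and lists were chosen with earlier results of these data known. Promoters came from RefSeq (GRCm38.p6). Alternatives covered scaling, filters, DESeq2 1.42.0, limma-voom (limma 3.58.1), a replicate block, a fit to 6 libraries, thinning to equal depth and leaving out each library. Some items are not reported here.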

Additional observations from a re-analysis of the deposited data

How the results depend on the processing

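Replacing the test against no change with a test against 1.2-fold left 1962 genes called in place of 5525, 1079 higher in place of 2768 and 883 lower in place of 2757. Leaving out single libraries of the 2 groups gave 4365 to 5584 called genes, 2223 to 2739 higher and 2142 to 2845 lower, with 382 to 423 at least 2-fold higher and 188 to 226 at least 2-fold lower. Over the other alternatives called genes numbered 4865 to 6135. By leave-one-out, members called higher ranged from 25 to 27 for cAMP/CREB targets, 10 to 11 for clock genes, 12 to 13 for droplet genes and 15 to 21 for PPAR targets, and members called lower from 8 to 10 for fatty acid synthesis, 13 to 20 for cholesterol, 38 to 44 for interferon-stimulated genes, 11 to 18 for ribosome biogenesis and 17 to 20 for SRF targets. Of 464 genes chosen by the naming rule 450 were called; 390 kept the call without each single library, 60 lost it in at least 1 such fit, and 0 changed direction in any of 17 settings. The replicate numbers were checked as pairs. The correlations of same-numbered deviations were 0.17, 0.09 and 0.18, and those of differently numbered ones lay between -0.15 and -0.03. The same-numbered values were not all over the 0.1 set as a limit, so the main fit did not take the numbers as pairs. The check does not show that pairing is absent. With a replicate block 6135 genes were called, 3062 higher and 3073 lower. With library totals in place of TMM 2557 were higher and 2897 lower. Genes under 1 CPM carry few counts, and their folds are the least precise.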
